A study of Saccharomyces cerevisiae with 9 samples.

Results

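The genes described here are those for building peroxisomes and for breaking down fatty acids inside them, in *Saccharomyces cerevisiae*. Members were taken by gene name from the deposited value table, as every gene named PEX followed by a number, together with POX1, FOX2, POT1, ECI1, DCI1, SPS19, TES1, FAA2, PXA1, PXA2, ANT1, IDP3, OAF1 and PIP2. The rule found 43 genes among the 6868 features of the table, 29 of them PEX genes and 14 genes of beta-oxidation and its regulation. A value on all 9 arrays was available for 39 of the 43, made up of 27 PEX genes and 12 of the others.

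Peroxisomes are single-membrane organelles, and in yeast they are the only site of fatty acid beta-oxidation. Their proteins are made in the cytosol and imported by peroxins, the products of the PEX genes: receptors bind a targeting signal, dock at the membrane, release their cargo inside and are returned to the cytosol after ubiquitination. The genes for beta-oxidation enzymes are kept low by glucose and are strongly induced by oleate through the transcription factors Oaf1, Pip2 and Adr1.

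Wild-type, S2A and S5A cells (labeled CTD14, CTD2A and CTD5A) were each profiled on 3 arrays. All 3 strains lacked the chromosomal copy of RPB1, the gene for the largest subunit of RNA polymerase II, and lived on a plasmid copy. The wild-type plasmid carried only wild-type heptad repeats in the C-terminal domain (CTD). In the mutants a block of repeats with alanine in place of serine 2 (S2A) or of serine 5 (S5A) preceded wild-type repeats, so that neither mutant lacked the serine altogether. The total number of repeats also differed among the 3 strains, and both mutants had fewer wild-type repeats than the wild-type plasmid. Each culture grew in YPD at 30°C and received NaCl to 0.7 M for 30 min, and each array compared cDNA of the salt-treated cells with cDNA of the unstressed culture of the same strain. A value is the log2 ratio of salt-treated over unstressed, so that 1 stands for a doubling. The labels number the replicates but do not say that they were separate cultures, and p-values measure the spread between these arrays.

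Array medians lay between -0.00135 and -0.00011, and 156 to 1163 features had no value on an array. The direction of the ratio was checked on the salt-induced genes GPD1, STL1, HSP12 and CTT1, whose wild-type means ran from 5.24 for GPD1 to 8.47 for STL1. The transcript of RPO21, the standard name of RPB1, had means of -0.63 in wild-type, -0.95 in S2A and -1.38 in S5A, which does not check the CTD substitutions. Its S5A minus wild-type difference of -0.75 passed the threshold for strain differences used below (limma adjusted p = 0.0113). The salt-treated sample carried the same dye on all 9 arrays, so a dye effect cancels between strains but not within one.

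The beta-oxidation genes were induced in wild-type cells, and the PEX genes responded in both directions or not at all. A response was called at an adjusted p below 0.05 in limma, adjusted by Benjamini-Hochberg over 5645 features. By this test 25 of the 39 complete members responded in wild-type (64.1%), 25 in S2A and 25 in S5A, beside 70.6%, 68.7% and 63.1% of all features. Of the 12 beta-oxidation genes and regulators with complete values, 10 were induced in wild-type and none was repressed, which is 83.3% induced beside 32.3% of all features. Of the 27 PEX genes, 11 were induced (40.7%) and 4 were repressed (14.8%), where 38.3% of all features were repressed. The median log2 change was 1.03 for the beta-oxidation group, 0.24 for the PEX genes and -0.06 for all features.

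The same split was seen in both mutants. In S2A 9 of 12 beta-oxidation genes and regulators were induced, with a median of 0.87, and in S5A again 9 of 12, with a median of 0.62. The background of induced features was 31.6% in S2A and 28.9% in S5A. Among the PEX genes 12 were induced and 4 repressed in S2A (median 0.19), and 11 were induced and 5 repressed in S5A (median 0.12), where 37.1% and 34.2% of all features were repressed. Called in the same direction in all 3 strains were 8 beta-oxidation genes, all induced, and 10 of 27 PEX genes, 7 induced and 3 repressed. Of all features 21.6% were induced and 27.3% repressed in all 3 strains.

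**Figure D1:**
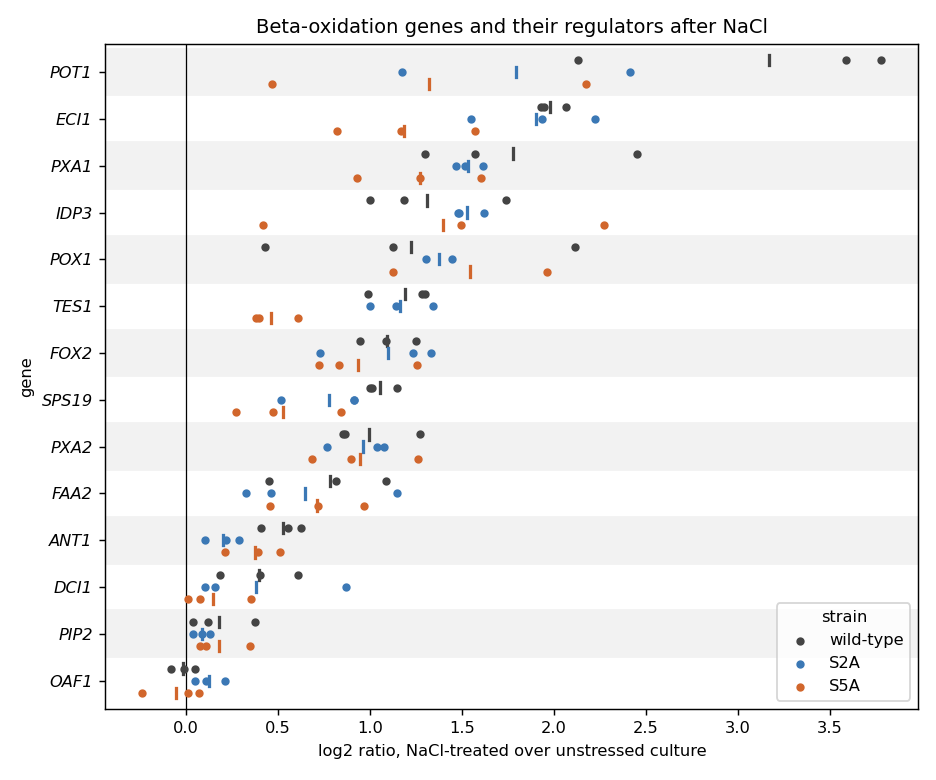
Log2 ratio of NaCl-treated over unstressed culture (x axis) for the 14 genes of beta-oxidation and its regulators (y axis), ordered by wild-type mean. Points are single arrays and short bars are the means of wild-type (gray), S2A (blue) and S5A (orange). The transcription factors OAF1 and PIP2 lie near 0 in all 3 strains, whereas POT1, ECI1 and PXA1 have the highest wild-type means (3.17, 1.98 and 1.78).

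The enzymes of the beta-oxidation spiral itself were induced. FOX2 (YKR009C), which encodes the multifunctional enzyme for hydration and dehydrogenation, changed by 0.95, 1.09 and 1.25 on the wild-type arrays, by 0.73, 1.23 and 1.33 in S2A and by 0.83, 1.25 and 0.72 in S5A. The strains overlapped, and FOX2 was called induced in each (wild-type 2.14-fold, limma adjusted p = 5.26e-05). POT1 (YIL160C), the thiolase that releases acetyl-CoA, stood at 2.13, 3.59 and 3.78 in wild-type, at 2.41 and 1.17 on the S2A arrays with a value and at 2.17 and 0.47 in S5A. Its wild-type mean of 3.17 ± 0.90 (SD, n = 3) is an 8.98-fold rise, the largest of the 43 genes, and its lowest values were in the mutants.

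POX1 (YGL205W), the acyl-CoA oxidase of the first step, read 1.13, 0.43 and 2.11 on the wild-type arrays, and was 1.45 and 1.31 in S2A and 1.97 and 1.12 in S5A. POX1 and POT1 had no value on S2A replicate 1 and S5A replicate 1, the arrays with the most missing features (1163 and 943), and were tested in a fit of the 6254 features with at least 2 values per strain. There POX1 was called induced in wild-type, S2A and S5A (limma adjusted p = 0.00768, 0.0115 and 0.00811). POT1 was called in wild-type (0.000375) and S2A (0.0174) but not in S5A (0.0601), and its S5A minus wild-type difference of -1.84 was not past the threshold (0.120). In that fit 68.6% of all features responded in wild-type, 66.2% in S2A and 60.7% in S5A.

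Genes for auxiliary enzymes, which handle unsaturated fatty acids and side products, were all called induced in wild-type, from DCI1 with the lowest mean to ECI1 with the highest. ECI1 (YLR284C), the enoyl-CoA isomerase, changed by 2.06, 1.93 and 1.95 in wild-type, 1.94, 1.55 and 2.22 in S2A and 0.82, 1.17 and 1.57 in S5A. The 3 S5A arrays lay below every wild-type array, and the means were 1.98 ± 0.073 (SD, n = 3; 3.95-fold), 1.90 ± 0.34 and 1.19 ± 0.38 (2.28-fold). DCI1 (YOR180C), a protein similar to Eci1 and named as a dienoyl-CoA isomerase, rose less, by 0.19, 0.61 and 0.40 in wild-type, 0.87, 0.16 and 0.10 in S2A and 0.08, 0.36 and 0.01 in S5A. It was called in wild-type (adjusted p = 0.0365) and S2A (0.0462) but not in S5A (0.414), and its call was lost without wild-type replicate 2 or 3 in wild-type (up to 0.182) and under 9 of 17 alternatives in S2A.

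SPS19 (YNL202W), the dienoyl-CoA reductase, had 1.01, 1.15 and 1.003 in wild-type, 0.91, 0.52 and 0.91 in S2A and 0.27, 0.48 and 0.84 in S5A. Here too each S5A array was below each wild-type array, but the difference of -0.52 was not called (adjusted p = 0.0733). IDP3 (YNL009W), the peroxisomal isocitrate dehydrogenase that supplies NADPH to Sps19, changed by 0.999, 1.74 and 1.19 in wild-type, by 1.48, 1.62 and 1.48 in S2A and by 2.27, 1.49 and 0.42 in S5A. Its S5A arrays spanned the widest range of the complete members (SD 0.93, n = 3), and it was called induced in each strain.

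TES1 (YJR019C), an acyl-CoA thioesterase, was the beta-oxidation gene with a called strain difference. It changed by 0.99, 1.29 and 1.30 in wild-type, 1.34, 1.003 and 1.14 in S2A and 0.40, 0.38 and 0.61 in S5A. Wild-type and S2A arrays overlapped, with 2.28-fold and 2.24-fold rises, and all 3 S5A arrays lay below them, with a 1.38-fold rise that was still called (adjusted p = 0.00336).

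The genes that bring fatty acids and ATP into the peroxisome had wild-type means from 0.53 for ANT1 to 1.78 for PXA1, all called induced. PXA1 (YPL147W) and PXA2 (YKL188C) encode the subunits of the ABC transporter for long-chain acyl-CoA. PXA1 changed by 1.30, 2.45 and 1.57 in wild-type, 1.52, 1.47 and 1.61 in S2A and 1.61, 1.28 and 0.93 in S5A. PXA2 changed by 0.86, 1.27 and 0.86, by 0.77, 1.08 and 1.04 and by 1.26, 0.90 and 0.68. For both genes the highest wild-type array was replicate 2, the strains overlapped, and the response was called in all 3 strains.

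FAA2 (YER015W), an acyl-CoA synthetase for medium-chain fatty acids inside the peroxisome, had 0.45, 1.09 and 0.82 in wild-type, 0.47, 0.33 and 1.15 in S2A and 0.72, 0.97 and 0.46 in S5A, and was called in each strain, in S2A not without replicate 3 (adjusted p = 0.0681). It overlaps BUD25 in the RefSeq annotation, and BUD25 had a value on only 1 wild-type and 1 S5A array (1.08 and 1.56), so shared signal could not be assessed. ANT1 (YPR128C), the adenine nucleotide transporter of the peroxisomal membrane, changed by 0.56, 0.63 and 0.41 in wild-type, by 0.11, 0.29 and 0.22 in S2A and by 0.21, 0.39 and 0.51 in S5A. ANT1 was called in wild-type (adjusted p = 0.000584) and S5A (0.00627, but 0.0580 without S5A replicate 3) and not in S2A (0.0810), and its S2A minus wild-type difference of -0.33 was not called (0.569).

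The transcription factors of the oleate response did not pass the test in any strain. OAF1 (YAL051W), whose product binds the oleate response element together with Pip2, had -0.08, 0.05 and -0.01 in wild-type, 0.11, 0.21 and 0.05 in S2A and -0.24, 0.07 and 0.02 in S5A. PIP2 (YOR363C) had 0.04, 0.37 and 0.12 in wild-type, 0.09, 0.13 and 0.04 in S2A and 0.35, 0.08 and 0.11 in S5A. Adjusted p ranged from 0.258 to 0.916 for OAF1 and from 0.132 to 0.449 for PIP2. No array of any strain showed a PIP2 or OAF1 value beyond 0.37 in size.

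**Figure D2:**
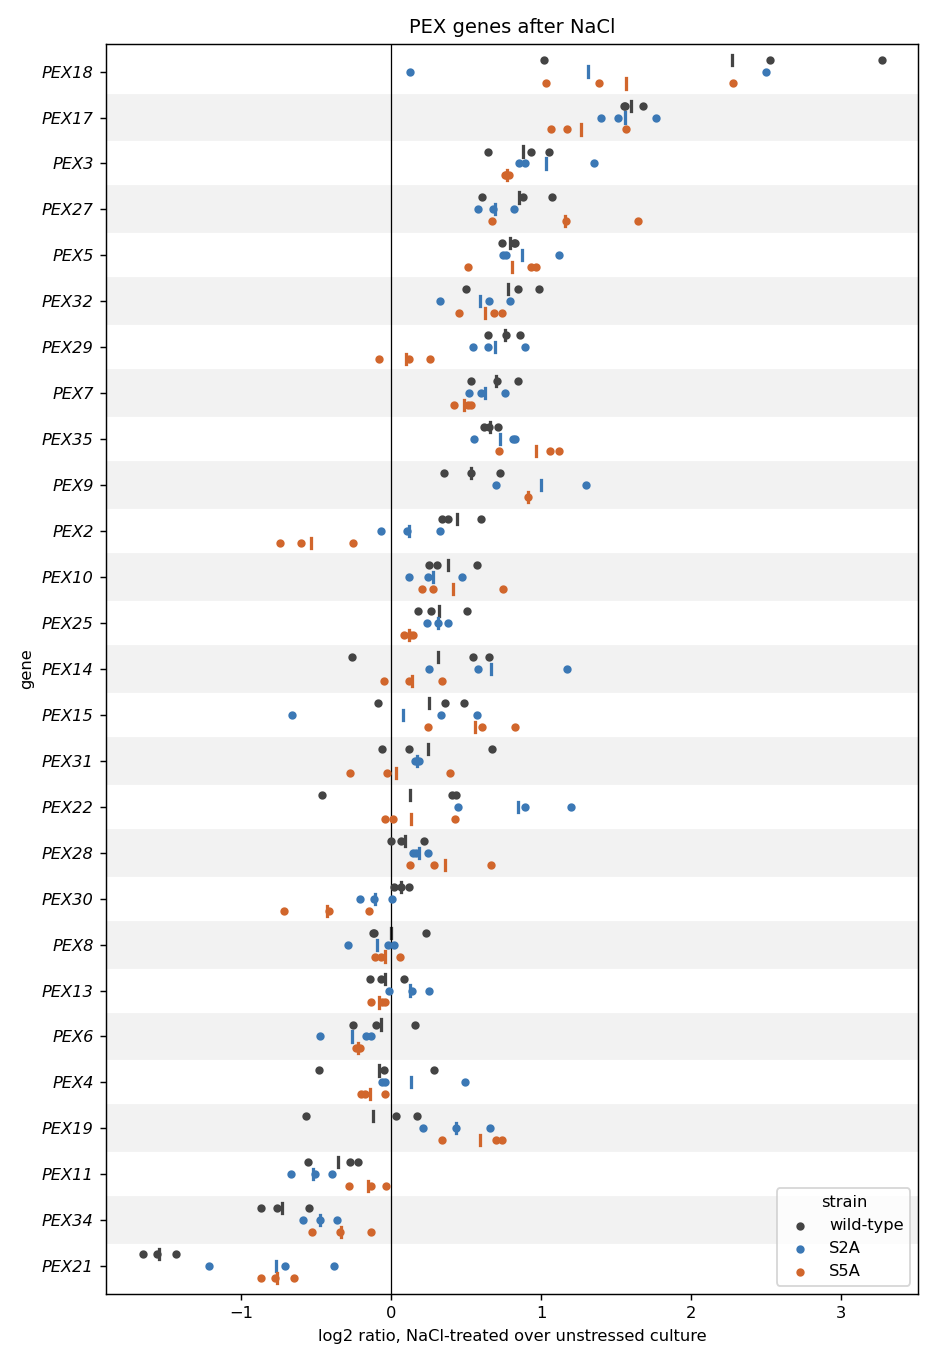
Log2 ratio of NaCl-treated over unstressed culture (x axis) for 27 PEX genes (y axis), ordered by wild-type mean, with points for single arrays and short bars for the means of wild-type (gray), S2A (blue) and S5A (orange). PEX18 and PEX21 lie at opposite ends, at wild-type means of 2.27 and -1.55, and the S5A points of PEX2 and PEX29 lie to the left of the wild-type points.

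Among the PEX genes the matrix protein receptors and their helpers held both extremes. PEX18 (YHR160C) and PEX21 (YGR239C) encode co-receptors that act with Pex7, the receptor for one of the peroxisomal targeting signals, in the import of proteins such as thiolase. PEX18 changed by 1.02, 3.27 and 2.52 in wild-type, by 2.50 and 0.12 on the S2A arrays with a value and by 1.03, 2.28 and 1.39 in S5A. PEX21 changed by -1.57, -1.65 and -1.44 in wild-type, -0.39, -0.71 and -1.21 in S2A and -0.65, -0.77 and -0.87 in S5A. Every PEX18 value was above 0 and every PEX21 value below it.

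The wild-type means correspond to a 4.83-fold rise of PEX18 and a 2.93-fold fall of PEX21. PEX18, which lacked a value on S2A replicate 1, was called in wild-type (adjusted p = 0.00386) and S5A (0.0264) and not in S2A (0.0938) in the fit that allows missing values. PEX21 was called repressed in all 3 strains (wild-type adjusted p = 3.60e-06).

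The receptor genes PEX5 and PEX7 rose together in all 3 strains. PEX5 (YDR244W), the receptor for the C-terminal targeting signal, changed by 0.82, 0.82 and 0.74 in wild-type, 1.12, 0.76 and 0.75 in S2A and 0.93, 0.51 and 0.96 in S5A. PEX7 (YDR142C) had means of 0.70 ± 0.16, 0.63 ± 0.12 and 0.49 ± 0.063 (SD, n = 3) in wild-type, S2A and S5A. PEX9 (YMR018W), a receptor related to Pex5, had a value on 6 arrays, too few in S5A for either fit, and read 0.53, 0.72 and 0.35 in wild-type, 1.30 and 0.70 in S2A and 0.91 on the single S5A array.

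Of the docking complex, which receives loaded receptors at the membrane, only PEX17 was called in all 3 strains. PEX17 (YNL214W) changed by 1.56, 1.68 and 1.55 in wild-type, 1.51, 1.40 and 1.76 in S2A and 1.06, 1.17 and 1.57 in S5A, a 3.02-fold rise in wild-type and the largest of the 27 complete PEX genes (adjusted p = 8.54e-07). Its partner PEX14 had means of 0.31 ± 0.50, 0.67 ± 0.47 and 0.14 ± 0.20 and was called only in S2A (0.0116), a call lost without S2A replicate 1 (0.113). PEX13 had means of -0.04, 0.12 and -0.08 and was called in none of the strains.

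The membrane ligase genes PEX2 and PEX10, whose products ubiquitinate receptors through RING domains, were called in the same direction in wild-type and in opposite directions in S5A. PEX2 (YJL210W) rose in wild-type, by 0.38, 0.60 and 0.34, and fell in S5A, by values of -0.74, -0.60 and -0.26, with 0.32, -0.07 and 0.11 in S2A. Both the rise in wild-type (1.36-fold, adjusted p = 0.00709) and the fall in S5A (1.45-fold, 0.00281) were called. PEX10 had means of 0.38, 0.28 and 0.41, called induced in wild-type (0.0207) and S5A (0.0161). Neither call of PEX10 was kept when 1 array was left out, wild-type replicate 2 (0.121) or S5A replicate 1 (0.147).

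The receptor recycling genes described here were called in a single mutant or in no strain. Of all features 70.6% responded in wild-type, 68.7% in S2A and 63.1% in S5A. PEX6, a subunit of the AAA ATPase that pulls receptors out of the membrane, had means of -0.07, -0.26 and -0.22, and PEX15, its membrane anchor, means of 0.25, 0.08 and 0.56. PEX6 was called in none of the strains and PEX15 only in S5A (adjusted p = 0.0411), a call lost under 4 of 17 alternatives.

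PEX4 (YGR133W), the ubiquitin-conjugating enzyme for receptors, had 0.29, -0.48 and -0.05 in wild-type, -0.04, -0.06 and 0.49 in S2A and -0.20, -0.04 and -0.18 in S5A and was not called. Its membrane anchor PEX22 had means of 0.12 ± 0.51, 0.85 ± 0.38 and 0.13 ± 0.26 and was called only in S2A (adjusted p = 0.00248), but its S2A minus wild-type difference was not (0.569). PEX8, which links docking and ligase complexes inside the peroxisome, had means between -0.10 and -0.0021 and no call.

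The membrane biogenesis genes PEX3 and PEX19 differed from each other in wild-type. PEX3 (YDR329C), the membrane receptor for Pex19, changed by 1.05, 0.64 and 0.93 in wild-type, 1.35, 0.85 and 0.89 in S2A and 0.78, 0.77 and 0.76 in S5A and was called in each strain. PEX19 (YDL065C), the chaperone for newly made membrane proteins, had 0.17, -0.57 and 0.03 in wild-type, 0.66, 0.21 and 0.43 in S2A and 0.70, 0.34 and 0.74 in S5A. PEX19 was called induced in S2A (adjusted p = 0.0254) and S5A (0.00617) but not in wild-type (0.487), and its S2A call was lost without S2A replicate 1 or 3 (up to 0.155). Both mutants' arrays lay above all the wild-type arrays.

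Of 10 genes for peroxisome division, number and size, 5 were induced and 2 repressed in wild-type. Over all features 32.3% were induced and 38.3% repressed in wild-type. The PEX27 product, which is related to Pex11, promotes proliferation: PEX27 (YOR193W) changed by 0.60, 1.07 and 0.88 in wild-type, 0.58, 0.82 and 0.68 in S2A and 1.65, 1.16 and 0.67 in S5A. PEX32 (YBR168W), which encodes a membrane protein that regulates size and number, changed by 0.50, 0.99 and 0.84, by 0.33, 0.65 and 0.79 and by 0.73, 0.68 and 0.45. Both genes were called in all 3 strains, as was PEX35, with means of 0.66, 0.73 and 0.97.

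PEX29 (YDR479C), which encodes another membrane protein of the same group, changed by 0.64, 0.77 and 0.86 in wild-type, 0.54, 0.65 and 0.89 in S2A and -0.08, 0.26 and 0.12 in S5A. It was called in wild-type (1.69-fold) and S2A (1.62-fold) and not in S5A (adjusted p = 0.439). PEX11 (YOL147C), the gene for the most abundant peroxisomal membrane protein and the main factor of proliferation on oleate, fell by 0.35 in wild-type, with arrays at -0.56, -0.23 and -0.28, and had -0.51, -0.39 and -0.67 in S2A and -0.28, -0.14 and -0.04 in S5A. PEX11 was called in wild-type (0.0106, but 0.0892 without wild-type replicate 1) and S2A (0.00106) and not in S5A (0.217).

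PEX34 (YCL056C), whose product acts with Pex11 in controlling number, changed by -0.77, -0.87 and -0.55 in wild-type, -0.59, -0.48 and -0.36 in S2A and -0.53, -0.13 and -0.34 in S5A and was called repressed in each strain, in S5A not without replicate 1 or 3 (adjusted p up to 0.141). PEX25, PEX28, PEX30 and PEX31 stayed within wild-type means of 0.07 to 0.32. Of these, PEX25 was called induced in wild-type (adjusted p = 0.0108) and S2A (0.0126), PEX28 induced in S5A (0.0161) and PEX30 repressed in S5A (0.00685), while PEX31 was not called. Each of these calls was lost with 1 array left out. For PEX25 the array was wild-type replicate 2 or S2A replicate 3 (0.0745), and for PEX28 (0.148) and PEX30 (0.0679) it was S5A replicate 1. The wild-type call of PEX25 was also lost when only the wild-type arrays were fitted (limma adjusted p up to 0.0712 over both settings).

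The next comparison asks whether the NaCl response of these genes depended on the CTD, and most members did not pass it. At a Benjamini-Hochberg adjusted p at or below 0.025, 3 of 39 members differed between S5A and wild-type, beside 7.95% of all features (4.13% higher and 3.83% lower in S5A). PEX2, TES1 and PEX29 were the 3, all with a lower value in S5A. The members' share of 7.69% was near the background. With Storey's q-value, the measure to which the methods apply this level, 5 of 39 members were called, beside 14% of all features, and ECI1 and PEX21 joined the 3. For 12 of the 39 the S5A and wild-type arrays did not overlap, where 37.7% of all features had arrays that did not.

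**Figure D3:**
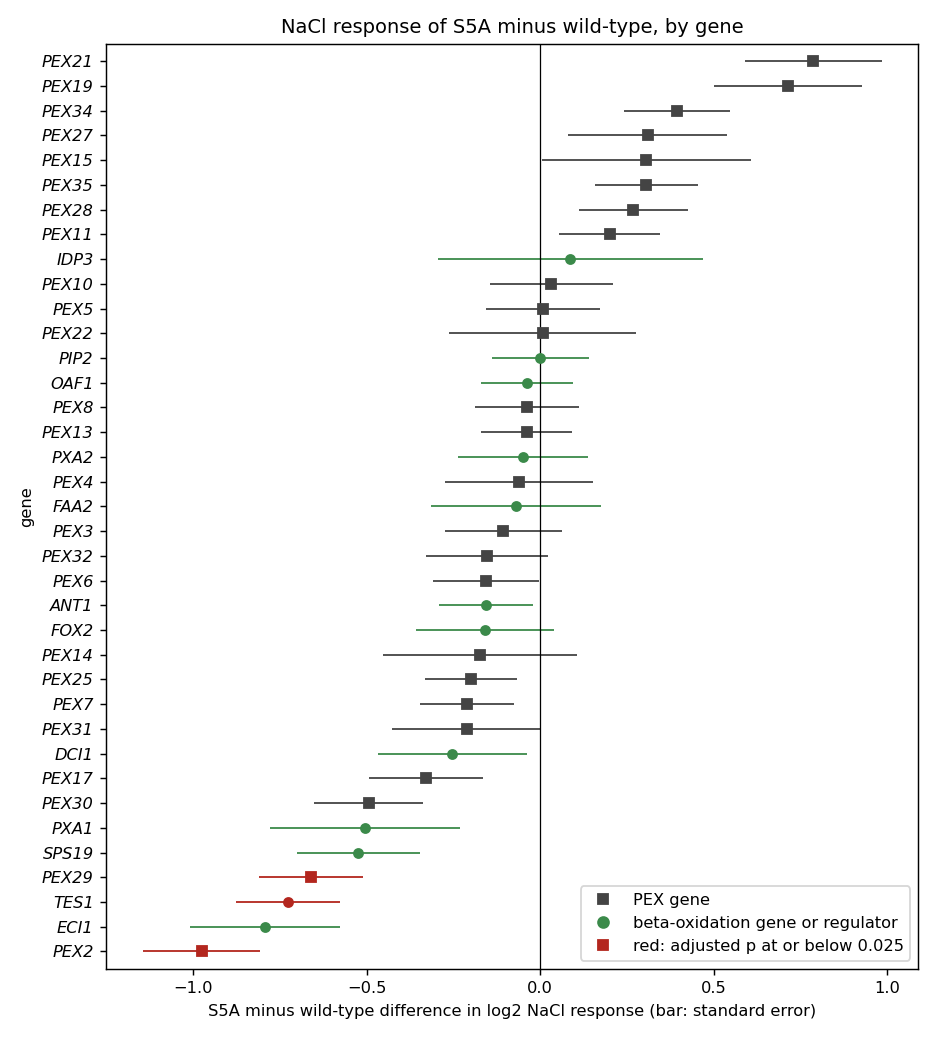
Difference in log2 NaCl response, S5A minus wild-type (x axis), for 37 genes with complete values (y axis). Bars are the standard error from limma, fitted without a replicate block. Squares are PEX genes and circles are beta-oxidation genes and regulators, and red marks the 3 genes called at an adjusted p at or below 0.025 (PEX2 at -0.98, TES1 at -0.73 and PEX29 at -0.66).

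The PEX2 difference was -0.98 (standard error 0.17; limma adjusted p = 0.00817), from a rise in wild-type to a fall in S5A. TES1 differed by -0.73 (standard error 0.15; 0.0141) and PEX29 by -0.66 (standard error 0.15; 0.0196). All 3 S5A arrays lay below all 3 wild-type arrays for each of these genes. After scaling the arrays to one spread PEX2 was called (0.0138), and TES1 (0.0328) and PEX29 (0.0393) were not. All 3 calls ended when wild-type replicate 3 or either of S5A replicates 1 and 2 was left out (PEX2 0.0283, 0.0384 and 0.0268), and without wild-type replicate 2 or S5A replicate 3 only PEX2 was called (0.0239 and 0.0177).

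Because same-numbered wild-type and S5A arrays deviated together, the difference was also fitted with the replicate number as a block. That fit called 6 of 39 members, beside 13.5% of all features, and they were PEX2 (adjusted p = 0.0108), TES1 (0.0144), PEX29 (0.0112), ECI1 (0.0241), PEX21 (0.0210) and PEX19 (0.0109). ECI1 was lower in S5A by 0.79 on the log2 scale (0.0362 without the block). PEX21 and PEX19 were higher in S5A, by 0.79 (0.0275) and 0.71 (0.0506), from a weaker fall of PEX21 and a rise of PEX19.

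On the scale of whole arrays, the median over the beta-oxidation group was 0.90, 1.12 and 0.93 in wild-type, 0.82, 0.76 and 1.09 in S2A and 0.56, 0.69 and 0.56 in S5A. The PEX median was 0.18, 0.23 and 0.25 in wild-type, 0.31, 0.18 and 0.38 in S2A and 0.08, 0.13 and 0.13 in S5A. Over all features the SD of an array was 1.07 to 1.22 in wild-type, 1.04 to 1.20 in S2A and 0.886 to 0.916 in S5A. For both groups the S5A medians lay below those of each wild-type and S2A array. The median S5A minus wild-type difference was -0.16 for the beta-oxidation group (lower in 10 of 12), -0.04 for the PEX genes (lower in 14 of 27) and 0.01 for all features. After quantile normalization the beta-oxidation median difference was -0.05 (lower in 7 of 12). After scaling the arrays to one spread it was also -0.05 (lower in 7 of 12).

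Members induced in wild-type were mostly lower in S5A, as were induced features in general, and the 3 called genes are among them. Of the 21 members induced in wild-type, 16 had a lower value in S5A (76.2%), with a median difference of -0.16, beside 77.9% and -0.27 for the 1825 features induced in wild-type. In S2A too 16 of the 21 were lower than in wild-type (76.2%), with a median difference of -0.06, beside 56.9% and -0.04 for the induced features. The 4 members repressed in wild-type all had a higher value in S5A, with a median difference of 0.30 beside 0.27 for the 2160 repressed features. These groups were picked on the wild-type arrays that also enter the difference.

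S2A and wild-type were not told apart at any member. None of 39 members was called in limma, beside 0.00% of all features. The differences ran from -0.33 for ANT1 to 0.78 for PEX21, which was -1.55 ± 0.11 in wild-type and -0.77 ± 0.42 in S2A (SD, n = 3; adjusted p = 0.569). The S2A arrays lay apart from the wild-type arrays for 7 of 39 members, beside 12.5% of all features.

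Between the mutants no member was called, beside 3.31% of all features (1.81% lower in S5A). TES1 came closest, lower in S5A by 0.70 on the log2 scale (limma adjusted p = 0.0251), followed by PEX29 (-0.60; 0.0388) and PEX2 (-0.65; 0.0424). PEX21 had nearly equal means in the mutants, with a difference of 0.0046 (standard error 0.20). With the replicate number as a block PEX29 was called (adjusted p = 0.0231), beside 5.58% of all features. The arrays of the mutants did not overlap for 8 of 39 members, beside 37% of all features. The comparisons with wild-type share its 3 arrays.

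**Figure D4:**
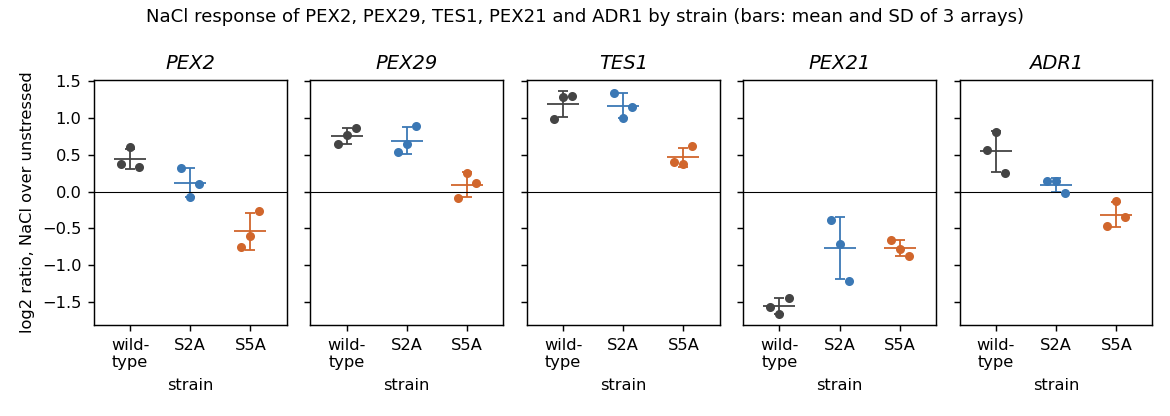
Log2 ratio of NaCl-treated over unstressed culture (y axis) in wild-type, S2A and S5A (x axis) for PEX2, PEX29, TES1, PEX21 and the regulator ADR1, with points for arrays and bars for the mean and SD (n = 3). The S5A points of PEX2 and ADR1 lie below 0 and those of wild-type above it, and both mutants lie above wild-type for PEX21.

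Other genes of the pathway, taken from lists of peroxisomal and fatty acid genes, included a regulator that differed between strains. ADR1 (YDR216W), the transcription factor that activates peroxisomal and beta-oxidation genes when glucose runs out, changed by 0.57, 0.81 and 0.26 in wild-type, 0.14, 0.14 and -0.02 in S2A and -0.46, -0.13 and -0.34 in S5A. The groups of wild-type and S5A arrays did not overlap and had opposite signs, and both responses were called (adjusted p = 0.00180 and 0.0382). The call in S5A was lost without S5A replicate 1 (limma adjusted p = 0.190), S5A replicate 3 (0.129) or S2A replicate 2 (0.0512). The S5A minus wild-type difference of ADR1 was -0.86 (limma adjusted p = 0.0112), which was past 0.025 under 14 of 17 alternatives but missed it without S5A replicate 1 (0.0534), S5A replicate 3 (0.0372) and wild-type replicate 2 (0.0293). ADR1 was the only strain difference called among 7 complete genes of a list of acyl-CoA synthetases, carnitine enzymes and regulators. Of these 7, 4 were induced and 2 repressed in wild-type, 3 and 3 in S2A, and 2 and 4 in S5A. Over all features the shares induced were 32.3%, 31.6% and 28.9%, and the shares repressed 38.3%, 37.1% and 34.2%.

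In the same list FAA4 and FAA3, which encode other long-chain acyl-CoA synthetases, fell by 2.13 and 1.22 on the log2 scale in wild-type. FAA1, a further acyl-CoA synthetase gene of the list, went the other way and rose by 0.47 in wild-type (limma adjusted p = 0.0020). YAT2, a carnitine acetyltransferase, rose by 1.24, and OAF3, a repressor of the oleate response, by 0.36. Of 15 other peroxisomal enzymes with complete values, 10 were induced and 2 repressed in wild-type. The counts were 10 and 1 in S2A and 8 and 3 in S5A. No strain difference of these enzymes was called, beside 7.95% of all features between S5A and wild-type. Of all features 32.3% were induced and 38.3% repressed in wild-type, 31.6% and 37.1% in S2A, and 28.9% and 34.2% in S5A. The induced enzymes include GPD1, used above as a salt-induced gene, and PNC1 (5.24 and 3.82 in wild-type). CTA1, the peroxisomal catalase, changed by 1.87 ± 0.68 in wild-type, 1.54 ± 0.23 in S2A and 0.81 ± 0.32 in S5A (SD, n = 3; S5A minus wild-type adjusted p = 0.0442). CAT2, the carnitine acetyltransferase of peroxisomes and mitochondria, rose by 0.95 in both wild-type and S5A.

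Genes for inheritance, fission and removal of peroxisomes moved little, apart from ATG36. ATG36, the receptor that marks peroxisomes for autophagy, rose by 1.89 ± 0.19 in wild-type, 2.17 ± 0.59 in S2A and 1.74 ± 0.21 in S5A (SD, n = 3). The other 5 genes (INP1, INP2, VPS1, DNM1 and FIS1) had wild-type means between -0.28 and 0.24, of which DNM1, the dynamin of fission, was called (adjusted p = 0.0410). In all, 2 of the 6 were induced in wild-type, 1 in S2A and 2 in S5A, beside 32.3%, 31.6% and 28.9% of all features. None was repressed, beside 38.3%, 37.1% and 34.2% of all features. No strain difference among them was called, where 7.95% of all features differed between S5A and wild-type.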

How the data were processed

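The authors hybridized cDNA to whole-genome tiled NimbleGen arrays and deposited normalized log2 ratios per gene or non-coding RNA, and the genome build is not given in the sources used here. Symbols came from the RefSeq R64 table by locus tag (5984 of 6868 features matched). Features with values on all 9 arrays (5645) entered a linear model in limma 3.58.1 under R 4.3.3, with a mean for each strain, moderated variances and Benjamini-Hochberg adjustment. Thresholds were 0.05 (response) and 0.025 (strain difference). The pipeline was tested on simulated data. The members and lists were chosen with earlier results of these data known. Arrays were given in full for all beta-oxidation genes and for PEX genes called between strains or among the 6 highest or 6 lowest in wild-type. Deviations from strain means correlated between same-numbered arrays at 0.149 to 0.388 for wild-type with S2A and 0.166 to 0.231 for wild-type with S5A, and a legend calls the strains paired, so the number was taken to pair these arrays. Of the members, 2 PEX genes are counted in totals but are not reported here individually. The number of arrays limits the precision. Alternatives were quantile normalization, scaling, at least 2 values per strain, only the strains compared, array weights, robust moderation, a replicate block, Storey's q-value and leaving out each array.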

Additional observations from a re-analysis of the deposited data

Results flagged for a closer look

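The NaCl response of 3 of 39 members (7.69%) differed between S5A and wild-type by the test of the difference itself, beside 7.95% of all features. The differences were -0.98 for PEX2, -0.73 for TES1 and -0.66 for PEX29. ADR1, which is not a member, differed by -0.86 in the same test. That test had no replicate block. With the block 6 of 39 members were called, beside 13.5% of all features, and 2 of the 6 (PEX21 and PEX19) were higher in S5A. PEX30, a membrane protein gene that regulates peroxisome size and number, had opposite signs on the arrays of the strains: 0.02, 0.12 and 0.06 in wild-type and -0.72, -0.41 and -0.15 in S5A. Its difference of -0.49 was not past 0.025 (limma adjusted p = 0.0628, and 0.0257 to 0.216 over 17 alternatives).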

How the results depend on the processing

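Called responses kept their direction under all 17 alternatives in each strain, and 21 of 25 in wild-type, 20 of 25 in S2A and 19 of 25 in S5A were also called under each of them. Among responses that were not called, the sign changed under some alternative for 8 of 14 genes in wild-type, 3 of 14 in S2A and 4 of 14 in S5A. The number of members called between S5A and wild-type was 1 (PEX2) after quantile normalization or scaling and 6 with a replicate block or array weights. It was 5 with Storey's q-value and 0 to 4 with 1 array left out. Of all features 3.22% were called after quantile normalization, 3.95% after scaling, 13.5% with the block and 22.7% with array weights. The share was 14% with Storey's q-value and 0.301% to 8.15% with 1 array left out. PEX2 was called under 14 of 17 alternatives, TES1 under 10 and PEX29 under 7. Between S5A and S2A 1 member was called with a replicate block (PEX29), 2 with array weights, 3 with Storey's q-value, and 0 to 1 with 1 array left out. The shares of all features were 5.58%, 7.49%, 7.33% and 0% to 4.87% in the same order. For that pair of strains same-numbered arrays correlated at 0.0616 to 0.129, less than with wild-type, and the block changed no count of members called between S2A and wild-type. The number of members repressed in S5A was 3 to 5 with 1 array left out, the lowest without S5A replicate 1. The PEX median in wild-type was 0.20 after scaling and 0.13 to 0.24 with 1 array left out, and that in S5A was 0.10 to 0.18. The beta-oxidation median in wild-type was 0.94 after quantile normalization and 0.95 after scaling. The beta-oxidation median in S5A was 0.71 after quantile normalization, 0.72 after scaling and 0.83 with missing values allowed, where POX1 and POT1 enter. For the other shifts the cause was not tested. The count of members called between S2A and wild-type was 0 under each alternative.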
